A study of Mus musculus with 8 samples.

Results

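The β2 integrins of leucocytes were followed in ATMs of obese mice fed an HFD and lean mice fed an LFD through the 5 genes that encode them: Itgax (CD11c), Itgam (CD11b), Itgal (CD11a) and Itgad (CD11d), the alpha chains, and Itgb2 (CD18), the beta chain they share. The members were found by their exact symbols in the annotation of the arrays, 5 of 18820 genes, and each was measured by 1 probe set. RNA came from pools of several male wildtype C57Bl/6 mice, on 8 Affymetrix whole-transcript arrays from 4 separate experiments, each with 1 HFD pool and 1 LFD pool. Experiments 1 and 3 used an HFD with 45% of energy as fat and experiments 2 and 4 one with 60%, the matched LFD supplied 10%, both were based on lard, and the labels give 16, 15, 16 and 10 weeks of feeding for experiments 1, 2, 3 and 4, whereas the study's methods give a single duration for all. All pools were selected from the stromal cells of epididymal fat with magnetic beads against the pan-macrophage marker Emr1, encoded by Adgre1, so a pool holds whatever macrophages the marker captures and any cells that came with them. Nothing in the labels ties a pool to single mice, so the error is the spread between pools.

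Each β2 integrin is a heterodimer of 1 alpha chain with CD18, and an alpha chain reaches the cell surface only in this pair. CD11a with CD18 (LFA-1) binds ICAMs and serves the arrest and crawling of leucocytes, CD11b with CD18 (Mac-1, complement receptor CR3) binds the complement fragment iC3b, fibrinogen and ICAM-1, CD11c with CD18 (complement receptor CR4) binds iC3b and fibrinogen, and CD11d with CD18 binds VCAM-1 and ICAMs. Kindlin-3 and talin switch the pair to its binding state from inside the cell, and Src and Syk family kinases carry the signal of a bound integrin inwards. In adipose tissue CD11c is a surface protein commonly used to sort an obesity-associated ATM population, whereas CD11b is carried by most macrophages and monocytes.

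Itgam, Itgax and Itgad lie next to each other, in this order, on chromosome 7, Itgal lies elsewhere on the same chromosome and Itgb2 on chromosome 10. The promoters of the neighbours Itgam and Itgax are shown because these genes sit side by side and only Itgax had non-overlapping levels between the diets. Both are the 250 bases before the gene's start on the + strand, from RefSeq (GRCm38.p6), chr7:128062390-128062639 for Itgam and chr7:128129300-128129549 for Itgax. Of the 5 members, 2 had a promoter in the table used.
Itgam: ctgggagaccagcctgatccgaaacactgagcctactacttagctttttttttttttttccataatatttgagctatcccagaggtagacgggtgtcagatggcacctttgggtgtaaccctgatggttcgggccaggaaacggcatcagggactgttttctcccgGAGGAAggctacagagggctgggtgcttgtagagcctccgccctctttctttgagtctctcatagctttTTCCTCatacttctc
Itgax: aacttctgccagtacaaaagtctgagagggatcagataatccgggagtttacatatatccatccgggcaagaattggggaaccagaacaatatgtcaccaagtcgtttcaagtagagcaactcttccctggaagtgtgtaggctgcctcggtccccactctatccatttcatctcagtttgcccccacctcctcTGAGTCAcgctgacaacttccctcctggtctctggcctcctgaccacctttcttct
Capitals mark matches to motifs searched on both strands, namely GAGGAA, a core bound by the myeloid factor PU.1, TGAGTCA, the AP-1 consensus, and TGTGGT, the Runx core. The Itgam promoter held GAGGAA at 84 to 79 bases before the start and again on the other strand, as TTCCTC, at 15 to 10 bases. The Itgax promoter held TGAGTCA at 56 to 50 bases before the start. No marked match overlapped another, and neither promoter held TGTGGT. Among 32851 promoters of the same length, 23.25% held GAGGAA, 4.46% TGAGTCA and 14.05% TGTGGT. These are matches of letters in a window and no evidence of binding.

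Both arrays of experiment 1 stood apart. The mean log2 level of 12 endothelial genes was 10.13 in ATMs from obese mice and 10.46 in ATMs from lean mice of experiment 1, whereas the arrays of experiments 2 to 4 lay between 5.54 and 8.92. The mean of 10 pan-macrophage genes was 8.66 in obese and 7.37 in lean pools of experiment 1 and 9.85 to 10.41 elsewhere. All 10 pan-macrophage genes lay above the dim limit, which was set at the log2 of 20, on every array. Because arrays were scaled to a common distribution, fewer macrophages in a pool and less RNA of a gene per macrophage cannot be told apart. The differences of Itgax, Itgb2, Itgam and Itgal are therefore given with and without experiment 1, whereas mean differences of listed genes include it. HFD and LFD arrays were compared with limma on log2 levels, with p values adjusted over all 18820 genes, and no gene passed an adjusted p of 0.05 without or with experiment as a block (smallest adjusted p = 0.982 and 0.0508, with 0% of genes called in either direction by both fits). At an unadjusted p of 0.05, limma gave 621 higher and 284 lower genes, and 1497 and 783 with the block.

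Itgax was the member with the clearest difference. Its log2 level was 8.19, 8.27, 9.79 and 9.94 in ATMs from obese mice of experiments 1, 2, 3 and 4, and 4.51, 5.63, 6.75 and 7.38 in ATMs from lean mice. Every obese pool lay above every lean pool, and the lean pool of experiment 1 lay just above the dim limit. The mean was 9.05 ± 0.95 in obese and 6.07 ± 1.26 in lean pools (SD, n = 4 pools each), a log2 difference of 2.98 (SE 0.70), or 7.89-fold. Within experiments the difference was 3.68, 2.64, 3.04 and 2.56. In limma Itgax did not pass (adjusted p = 0.982, 95% CI of the difference 1.35 to 4.61). With experiment as a block the interval narrowed to 2.48 to 3.48 (5.58-fold to 11.2-fold), and the adjusted p was 0.0508 in limma, above the threshold, and with experiment as a random term it was 0.236. It passed only when the block was combined with omission of dim probe sets, which was tried only after the data had been seen (adjusted p = 0.0440). The exact two-sided permutation test over pools gave p = 0.0286 for Itgax alone, the smallest that 4 pools against 4 allow. Without experiment 1 the mean difference was 2.75, or 6.72-fold.

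Itgax ranked 2 of 18820 genes by the size of its difference and 1 by its lowest difference in any experiment. By its limma p it ranked 33, and with experiment as a block it ranked 4. In the plot of all genes it lies at the upper right edge, apart from the other members.

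**Figure D1:**
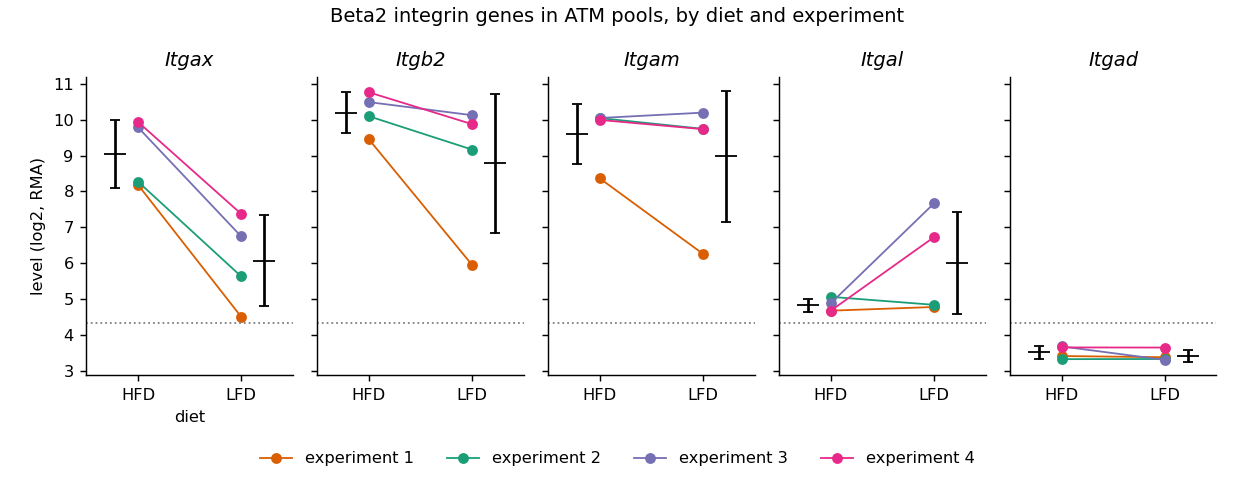
Log2 level of each β2 integrin gene in the 4 HFD (left) and 4 LFD (right) pools, joined within experiments. Black bars are the mean and SD of each diet and the dotted line is the dim limit (log2 of 20). Itgax was higher in the HFD pool of every experiment with no overlap between diets, Itgal was higher in the LFD pools of experiments 3 and 4, and Itgad lay under the limit on all 8 arrays.

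Itgb2, whose product every alpha chain needs, was also higher in the obese pool of each experiment, but by amounts that varied widely. Its log2 level was 9.45, 10.10, 10.49 and 10.77 in ATMs from obese mice, and 5.95, 9.17, 10.13 and 9.88 in ATMs from lean mice, in experiments 1, 2, 3 and 4. The diets overlapped, and the lean pool of experiment 1 was the lowest of all. The difference within experiments was 3.50, 0.93, 0.36 and 0.89. Its mean of 1.42 (SE 0.89, 95% CI -0.65 to 3.49) did not pass in limma (adjusted p = 0.990). With experiment as a block the 95% CI was 0.12 to 2.72, and it did not pass either (limma adjusted p = 0.378). Without experiment 1 the difference was 0.73, or 1.66-fold, against 2.68-fold with it. The exact two-sided permutation test gave p = 0.171 for Itgb2.

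Itgam did not follow Itgax. Its log2 level was 8.36, 10.05, 10.05 and 10.00 in ATMs from obese mice, and 6.26, 9.75, 10.20 and 9.74 in ATMs from lean mice, in experiments 1, 2, 3 and 4. Outside experiment 1, the 3 obese and 3 lean pools all lay between 9.74 and 10.20. The difference within experiments was 2.10, 0.30, -0.15 and 0.26, with a mean of 0.63 (SE 0.89, 95% CI -1.44 to 2.70, limma adjusted p = 0.999). With experiment as a block the 95% CI was -0.31 to 1.56 (limma adjusted p = 0.600). The exact two-sided permutation test gave p = 0.543. Without experiment 1 the mean difference was 0.14. Without the lean pool of experiment 1 alone it was -0.28, but the low obese pool of that experiment (8.36) then stayed in.

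Itgal, the alpha chain of LFA-1, was lower in ATMs from obese mice by a wide margin in experiments 3 and 4 but not in experiments 1 and 2. Its log2 level was 4.68, 5.06, 4.88 and 4.68 in ATMs from obese mice, and 4.78, 4.84, 7.67 and 6.73 in ATMs from lean mice, in experiments 1, 2, 3 and 4. The obese pools were alike and close to the dim limit, and the lean pools of experiments 3 and 4 stood above all others. The difference was -0.10 and 0.22 in experiments 1 and 2 and -2.78 and -2.05 in experiments 3 and 4. The mean of -1.18 (SE 0.64, 95% CI -2.66 to 0.31) did not pass in limma (adjusted p = 0.982). With experiment as a block the 95% CI was -2.53 to 0.18 (limma adjusted p = 0.483). The exact two-sided permutation test gave p = 0.229. It ranked 26 of 18820 genes from the most negative difference. Without experiment 1 the mean difference was -1.54, and without the lean pool of experiment 3 it was -0.62.

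Monocytes, T cells and NK cells also carry LFA-1. The mean of the 5 measured monocyte genes differed by 0.40, -0.11, -0.94 and -1.02 in experiments 1, 2, 3 and 4, ranged from 6.21 to 7.10 in obese and from 5.82 to 7.74 in lean pools, and was thus lower, like Itgal, in experiments 3 and 4. The 5 genes did not move as one. Plac8 was lower in 4 of 4 experiments (-1.32 to -0.18), as were 7.43% of all genes. Every obese pool lay below every lean pool for Plac8, as for 0.68% of all genes. The obese pool of experiment 4, where the difference was -1.32, lay under the dim limit (3.68). Plac8 did not pass (limma adjusted p = 0.982, and 0.386 with experiment as a block). Ccr2, the chemokine receptor of inflammatory monocytes, differed by 0.54, -0.03, -1.90 and -0.57 in experiments 1, 2, 3 and 4, F13a1 by 0.66, -0.79, -1.51 and 0.13, and Fn1, which encodes fibronectin, by 0.19, -0.22, 0.30 and -0.86. Chil3 differed by 0.82, 0.66, -1.08 and -2.46 but lay under the dim limit on 7 of 8 arrays. The part of monocytes in the Itgal difference was not tested. Of the T cell genes 4 of 7, and of the NK cell genes 5 of 7, lay under the limit on all arrays, including Cd3d, Cd3g, Cd8a, Ncr1 and Eomes. Cd4, a coreceptor of T cells that some myeloid cells also carry, lay above it on all arrays and differed by -0.55, -1.87, -0.63 and -1.13 in experiments 1, 2, 3 and 4 (mean -1.04, limma adjusted p = 0.982, and 0.197 with experiment as a block). The mean of the T cell genes ranged from 3.81 to 4.06 in obese and from 3.91 to 4.27 in lean pools, and that of the NK cell genes from 2.85 to 3.07 in obese and from 3.07 to 3.58 in lean pools.

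Itgad was dim everywhere. Its log2 level lay between 3.32 and 3.68 in ATMs from obese mice and between 3.30 and 3.65 in ATMs from lean mice, under the dim limit on all 8 arrays. The difference of 0.10 (SE 0.12, limma adjusted p = 0.999) therefore carries no information on CD11d beyond a signal near background in both diets.

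Over the members, 1 of 5 (Itgax) was higher and 0 lower at an unadjusted limma p of 0.05, against 3.3% of all genes higher and 1.51% lower. With the block 2 of 5 (Itgax and Itgb2) were higher and 0 lower by the same measure, against 7.95% and 4.16%. Of the 5, 1 (Itgax) had all obese pools above all lean pools, against 1.19% of all genes, and 0 had them below, against 0.68%. In all 4 experiments 2 were higher (Itgax and Itgb2), against 11% of all genes, and 0 lower, against 7.43%. By an adjusted p of 0.05 with the block and after dim probe sets were left out, the setting added later, 1 of the 4 members left (Itgax) was higher, against 0.217% of 10623 genes, and 0 were lower, against 0.0188%. The median difference of the members was 0.63, the value of Itgam, against 0.0049 for all genes. Without experiment 1 the difference was 0.14 for Itgam and 0.13 for Itgad.

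**Figure D2:**
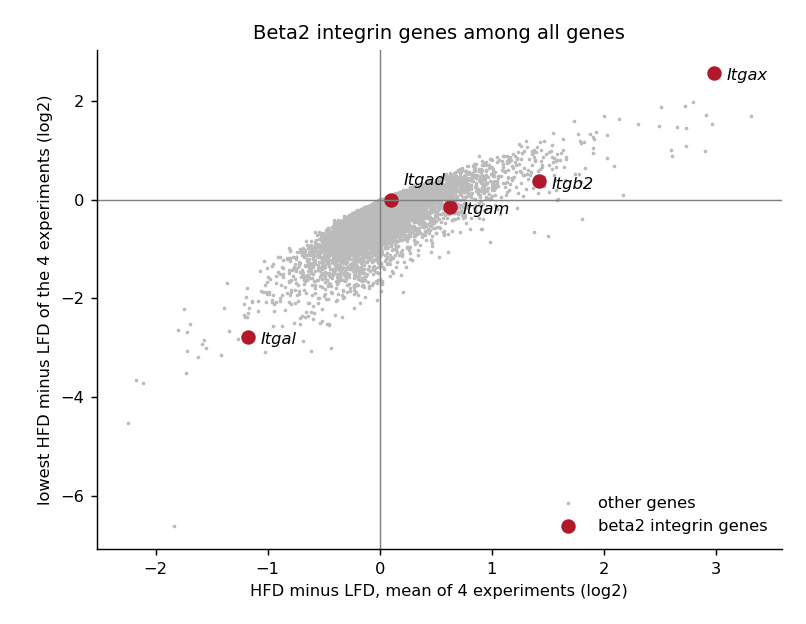
Mean HFD minus LFD difference (x axis, log2) against the lowest of the 4 within-experiment differences (y axis, log2) for 18820 genes (grey) and the 5 β2 integrin genes (red). Itgax lies at 2.98 and 2.56, Itgb2 at 1.42 and 0.36, Itgam at 0.63 and -0.15, Itgad near 0 and Itgal at -1.18 and -2.78.

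As a yardstick for the macrophage content of each pool, the mean of the 10 pan-macrophage genes was subtracted on each array. The 10 genes did not move as one, with mean differences from -0.61 for Aif1 to 1.12 for Mpeg1. Their mean differed by 1.29, 0.14, -0.23 and 0.06 in experiments 1, 2, 3 and 4, so it differed mainly in experiment 1. Relative to it, Itgax was 2.67 higher in ATMs from obese than from lean mice (6.34-fold), with 2.39, 2.50, 3.27 and 2.50 in the 4 experiments and non-overlapping diets (exact permutation test, two-sided, p = 0.0286, not adjusted for the 5 such tests made). Experiment 1 no longer stood above the others for Itgax. Itgb2 was 1.10 higher (0.60 to 2.21, higher in 4 of 4 experiments, exact two-sided permutation test, p = 0.0571), Itgam 0.31 higher (0.08 to 0.81, p = 0.257 by the same exact test), and Itgal had a difference of -1.49 (p = 0.0857 by the same exact test), being lower in 3 of 4 experiments. In experiment 1 Itgal stood at -1.40, where Itgal itself, close to the dim limit, differed by -0.10 and the macrophage mean by 1.29. Itgad, with its dim signal, differed by -0.21.

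Adgre1, the gene of the marker used for selection, had log2 levels of 8.58, 10.70, 10.67 and 10.19 in obese and 6.54, 10.27, 10.95 and 9.95 in lean pools of experiments 1, 2, 3 and 4. Taken as the only yardstick, it left a difference of 2.37 for Itgax (1.63 to 3.32), now with overlapping pools (exact two-sided permutation test, p = 0.0571), and of 0.81 for Itgb2 (0.50 to 1.46). Itgam differed from Adgre1 by 0.02, with -0.13 to 0.13 in the 4 experiments, which is the narrowest range of the 5 members. Itgal differed by -1.79 and was then lower in 4 of 4 experiments (-2.50 to -0.21). In experiments 1 and 2, however, Itgal itself lay close to the dim limit and differed by only -0.10 and 0.22. Adgre1 differed by 2.04 and 0.43 there, so these 2 relative values reflect mostly Adgre1.

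**Figure D3:**
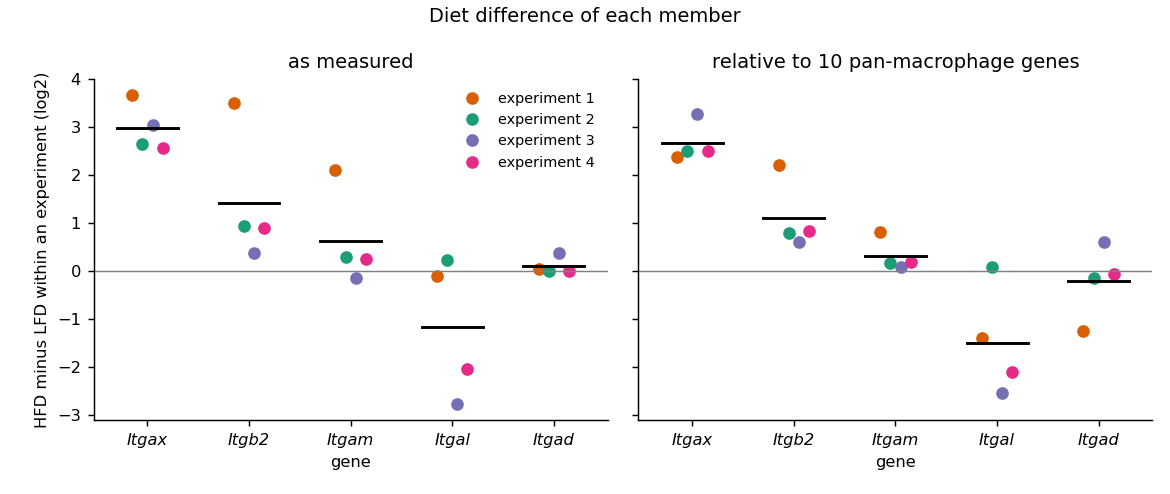
HFD minus LFD difference (log2) of each β2 integrin gene within each experiment, as measured (left) and after subtracting the mean of 10 pan-macrophage genes on each array (right). Points are experiments and black bars their means. The mean for Itgax was 2.98 as measured and 2.67 relative to the macrophage genes, and the mean for Itgam 0.63 and 0.31.

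The members were then compared with each other as log2 ratios within arrays, over 10 pairs, in which the unequal brightness of probe sets cancels between diets. The diet difference of Itgax exceeded that of its neighbour Itgam by 2.35, with 1.58, 2.34, 3.19 and 2.31 in experiments 1, 2, 3 and 4 (exact two-sided permutation test, p = 0.0571, adjusted p = 0.0816). Itgax exceeded its partner chain Itgb2 by 1.56 on average, but by only 0.18 in experiment 1, against 1.71, 2.67 and 1.68 in the others (exact permutation p = 0.0571, adjusted p = 0.0816). Itgb2 exceeded Itgam by 0.79, with 0.51 to 1.40 in the 4 experiments (exact permutation p = 0.0571, adjusted p = 0.0816). Against Itgal, the difference was 4.16 higher for Itgax, 2.60 higher for Itgb2 (both exact permutation p = 0.0286) and 1.81 higher for Itgam, each positive in 4 of 4 experiments. None of the 10 pairs passed an adjusted p of 0.05 in these exact tests, the smallest being 0.0816, and with 4 pairs of pools the exact sign-flip test cannot go below 0.125.

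The diets differed in fat content between experiments. Itgax differed by 3.68 and 3.04 in the 45% experiments and by 2.64 and 2.56 in the 60% experiments, 0.76 less at 60% fat (SE 0.27, limma interaction, adjusted p = 0.951, 95% CI of the change -1.46 to -0.05). As measured, the larger differences thus came with less fat. By the labels the 60% experiments also ran for 15 and 10 weeks against 16 in the others, so fat content and duration cannot be told apart. Without experiment 1 the change for Itgax was -0.44, with a 95% CI across 0 (-1.04 to 0.17). Relative to the pan-macrophage genes, Itgax differed by 2.39 and 3.27 in the 45% experiments and by 2.50 and 2.50 in the 60% experiments. For the other members the interaction was -1.02 for Itgb2, -0.70 for Itgam, 0.53 for Itgal and -0.20 for Itgad, each with a 95% CI across 0.

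CD11c and CD11b are also surface markers of dendritic cells and neutrophils. The mean of 9 dendritic cell genes was 4.54 to 4.76 in obese and 4.61 to 4.91 in lean pools, and differed by 0.12, -0.15, -0.36 and -0.29 in experiments 1, 2, 3 and 4, where Itgax differed by 2.56 or more. Flt3, Xcr1 and Clec9a, which mark conventional dendritic cells, lay under the dim limit on all arrays, and Zbtb46, a transcription factor of these cells, differed by -0.02. Cd209a, a lectin of monocyte-derived dendritic cells, was lower in the obese pools of experiments 2 and 3 (-2.03 and -2.55, with 8.91 and 9.08 in the lean pools) and higher in those of experiments 1 and 4 (0.53 and 0.24), with a mean of -0.95. Dpp4 differed by -0.51. The part of dendritic cells in the Itgax difference was not tested. Of 9 neutrophil genes 8 lay under the limit on all arrays, including S100a8 and S100a9, with a list mean of 2.96 to 3.22 in obese and 2.85 to 3.38 in lean pools. The remaining gene, Csf3r, differed by -0.47.

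Among 13 measured ligand genes of the β2 integrins (ICAMs, junctional adhesion molecules, fibrinogen chains, VCAM-1 and others), 0 passed the adjusted threshold in either fit, 0 were higher and 2 lower in all 4 experiments (11% and 7.43% of all genes), and the median difference was -0.06. These were Vcam1, the endothelial ligand of CD11d with CD18 (-0.49 (SE 0.62)), and the fibrinogen chain Fgg, dim on all arrays (-0.03 (SE 0.06)). These SEs, like those of the genes below, are from limma without a block. With experiment as a block the SE was 0.12 for Vcam1 and 0.07 for Fgg. C3, the listed gene for the ligand iC3b, was not among the measured genes. Icam1, the main ligand of LFA-1 and Mac-1, differed by -0.02 and was named after its value was seen. Endothelial cells carry several of these ligands, and the mean of the 12 endothelial genes differed by -0.33, -0.83, 2.04 and -1.74 in experiments 1, 2, 3 and 4. Their part in the ligand values was not tested.

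Genes of integrin activation and its adaptors inside the cell were measured next, a list that does not separate activators from inhibitors. Of 19 measured, 6 were higher and 1 lower in all 4 experiments, where 11% of all genes were higher and 7.43% lower. In either fit 0 passed the adjusted threshold, and the median difference was 0.15. Among those with the same sign in all 4 experiments the largest were Actn1, an alpha-actinin that links integrins to actin (0.95 (SE 0.56)), Apbb1ip, the Rap1 effector RIAM (0.74 (SE 0.81)), Fermt3, which encodes kindlin-3 (0.63 (SE 0.78)), and Dok1, an adaptor that binds the integrin tail (0.47 (SE 0.42)). With experiment as a block their SEs were 0.34, 0.21, 0.23 and 0.16.

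Of 11 signalling genes downstream of bound integrins, 1 was higher and 0 lower in all 4 experiments, close to the 11% of all genes that were higher, with a median of 0.38, and 0 passed in either fit. The 1 gene was Src, a kinase of the integrin signal, at 5.79 to 6.16 in obese and 5.38 to 5.69 in lean pools, with no overlap between the diets, as for 1.19% of all genes. Its difference was 0.40 (SE 0.11), with 0.31 to 0.48 within experiments (limma adjusted p = 0.982, and 0.157 with experiment as a block). Of 9 other integrin chains of leucocytes 2 were higher and 1 lower in all 4 experiments, again against 11% and 7.43% of all genes. These were Itgav and Itgb5, which pair as a vitronectin receptor (1.17 (SE 0.31) and 0.78 (SE 0.26)), and Itgb3 (-0.20 (SE 0.31)), and none passed (limma with experiment as a block, adjusted p = 0.0749 for Itgav, 0.159 for Itgb5 and 0.546 for Itgb3).

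Among 13 measured transcription factors of myeloid cells, 2 were higher and 2 lower in all 4 experiments (11% and 7.43% of all genes), with a median of 0.07, and 0 passed in either fit. Spi1, which encodes PU.1, differed by 0.72 (SE 0.79), Id2 by 0.23 (SE 0.29), Maf by -0.47 (SE 0.69) and Runx3 by -0.30 (SE 0.11). For Spi1 the differences within experiments ran between 0.14 and 2.04. Of 14 measured genes known from CD11c+ ATMs, a list chosen with earlier results of these data known, 12 were higher and 0 lower in all 4 experiments (11% and 7.43% of all genes) and the median was 1.41, and 0 passed the adjusted threshold in either fit. They included Gpnmb (2.90 (SE 0.83)), a membrane glycoprotein, Atp6v0d2 (2.73 (SE 1.02)), a subunit of the lysosomal proton pump, Ctsk (2.65 (SE 0.70)), a cathepsin, and Mmp12 (2.49 (SE 0.68)), the macrophage elastase. The difference of Itgax (2.98) was larger than that of any of these 4.

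**Figure D4:**
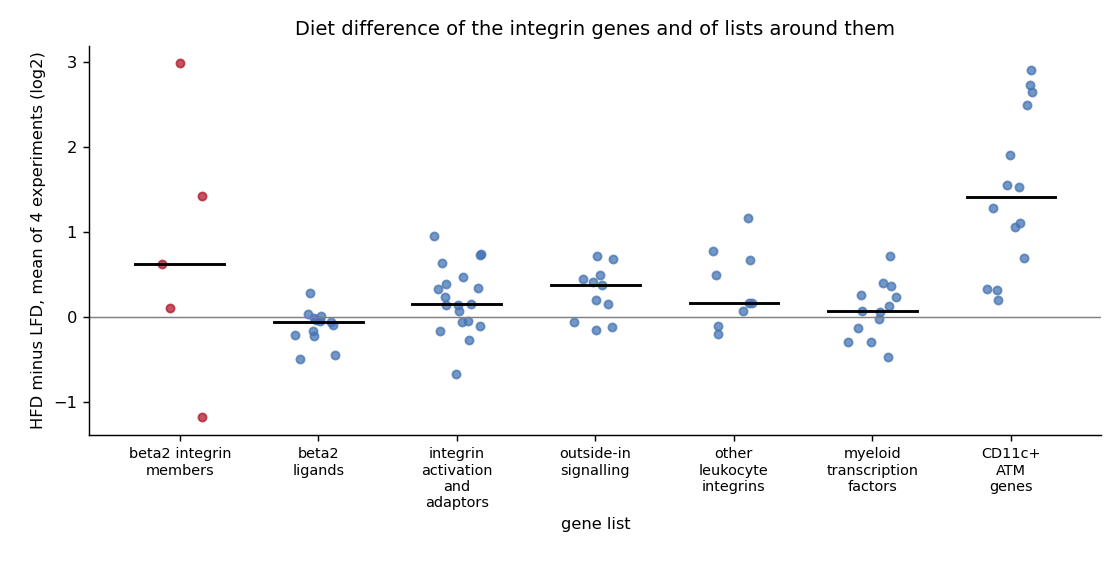
Mean HFD minus LFD difference (log2) of the 5 β2 integrin genes (red) and of the measured genes of 6 lists around them (blue). Each point is a gene and each bar a list median. It was 0.63 for the members, -0.06 for ligands, 0.15 for activation and adaptor genes and 1.41 for genes known from CD11c+ ATMs. The median of the members is the value of Itgam, which was 0.14 without experiment 1.

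The genes whose pattern over the 8 arrays was most like that of a member were found for Itgax, Itgam, Itgb2 and Itgal, not for the dim Itgad, by the root mean square (RMS) difference of gene-centred log2 levels, among 10503 genes. For Itgax, whose own RMS distance from its mean was 1.78, these were Mmp12 (0.43), the cytokine receptor Il7r (0.46), the ubiquitin ligase Rnf128 (0.49) and the kinase Cdk18 (0.49). They differed between ATMs from obese and lean mice by 2.49, 2.91, 2.97 and 2.51 and were higher in the obese pool of every experiment. For each member the genes were chosen by likeness on the same 8 arrays, so sharing its differences follows from that choice.

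Itgam (own distance 1.27) lay much closer to its nearest genes, the kinase Btk (0.12), the lectin Clec4a2 (0.13), the complement receptor C5ar1 (0.15) and the scavenger receptor Msr1 (0.15). All 4 shared the low pair of arrays of experiment 1, with a difference of 1.84 to 2.04 there. Itgb2 (own distance 1.42) was nearest to the myosin Myo1f (0.23), the receptor Cd84 (0.24), the chemokine Ccl9 (0.27) and the adaptor Blnk (0.29), each higher in the obese pool of all 4 experiments and with its largest difference in experiment 1.

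Itgal (own distance 1.06) was nearest to Asb2 (0.36), a ubiquitin ligase subunit, Il1a (0.53) and Il1b (0.55), which encode the cytokines IL-1α and IL-1β, and Acod1 (0.54), the enzyme that makes itaconate. Each was lower in the obese pools of experiments 3 and 4, with differences of -1.82 and -2.07 for Asb2, -1.55 and -1.30 for Il1a, -2.51 and -0.50 for Acod1 and -1.55 and -1.21 for Il1b. In experiments 1 and 2 only Asb2 was lower in both, and Il1b was higher by 1.57 in experiment 2. Arrays of one experiment deviated together, so likeness over 8 arrays holds the differences between experiments as well as diet.

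The genes on either side of the alpha chain genes were also examined. Of the nearest measured ones, Pycard, the inflammasome adaptor ASC, differed by 0.23 (SE 0.44) and Trim72 by 0.30 (SE 0.17) on the side of Itgam, and Cox6a2 by 0.04 (SE 0.32) and Armc5 by 0.0037 (SE 0.19) on the side of Itgad. Trim72 was higher in 4 of 4 experiments, as were 11% of all genes, but lay under the dim limit on 7 of 8 arrays. Around Itgal, Zfp771, Dctpp1 and Sephs2 differed by -0.01, 0.05 and -0.08 on one side. On the other side the zinc finger genes Zfp768, Zfp747 and Zfp764 differed by -0.31 (SE 0.11), -0.45 (SE 0.15) and -0.15 (SE 0.17). Zfp747 was lower in every obese than in every lean pool (4.70 to 4.99 in obese and 5.06 to 5.68 in lean pools, limma adjusted p = 0.982), as were 0.68% of all genes. 9130023H24Rik, also a neighbour, was not measured by a probe set with 1 symbol.

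**Figure D5:**
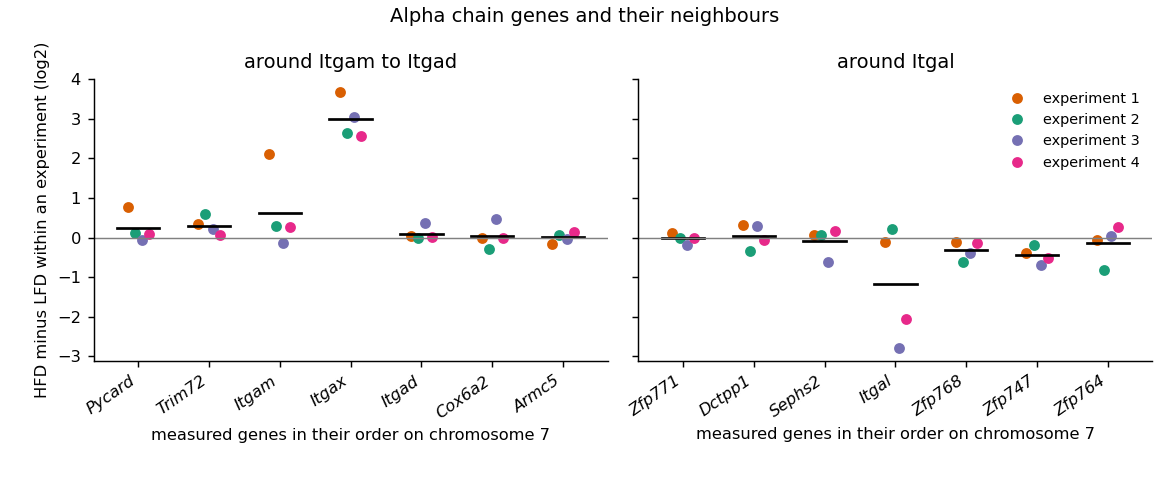
HFD minus LFD difference (log2) within each experiment for the measured genes around Itgam, Itgax and Itgad (left) and around Itgal (right), in their order on chromosome 7. Points are experiments and black bars their means. Itgax (2.98) stands above Itgam (0.63) and Itgad (0.10) beside it, and the other genes shown have means between -0.45 and 0.30 apart from Itgal (-1.18).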

How the data were processed

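Log2 levels of 35556 probe sets on 8 arrays (4 HFD and 4 LFD pools) were deposited by the authors. The submitters' processing notes name RMA, which corrects background, quantile normalises the arrays and summarises probes. Its version is not given in the sources used here, and the array methods in the ESM were not used here. Array medians were 4.25 to 4.39, and the number of arrays limits the precision.

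Probe sets with 1 symbol (21218) gave 18820 genes, the brightest probe set standing for a gene, and 1881 with several symbols and 12457 without annotation were not named. Entrez IDs linked 18790 genes to RefSeq. HFD and LFD arrays were compared in limma 3.58.1 (R 4.3.3) without a block, with Benjamini-Hochberg adjustment at 0.05, and, as alternatives, with experiment as a block, since the labels pair the diets by experiment. Deviations of paired arrays from their diet means correlated over genes with r of 0.889, 0.357, 0.652 and 0.186 in experiments 1, 2, 3 and 4. The fits were tested on simulated data. Single values were compared with exact permutation tests (scipy 1.17.1).

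The members and gene lists were chosen with earlier results of these data known. Named genes are the members, up to 4 genes of each list with the largest difference and the same sign in all 4 experiments, Adgre1, the 3 protein-coding genes on each side of the alpha chain genes, and the 4 genes most like each member. Of the neighbours, 1 is not reported here. Other marker genes given were chosen after their values were seen. Alternatives left out each array, each experiment or dim probe sets, or changed scaling, probe set choice, prior, test and yardstick.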

Additional observations from a re-analysis of the deposited data

Results flagged for a closer look

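Among 12 groups of 4 arrays tested with Dixon's criterion at its 95% critical value, which by chance picks about 1 in 20 groups, 2 held an outlying array, and both concerned Itgam in experiment 1. Itgam was at 8.36 in the HFD pool of experiment 1, below the 3 other HFD pools, and at 6.26 in the LFD pool of experiment 1, below the 3 other LFD pools. The pan-macrophage mean was low and the endothelial mean high on the same arrays, and their part in the Itgam values was not tested.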

How the results depend on the processing

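Under the alternatives for the HFD minus LFD difference, Itgax kept a positive sign (2.46 to 3.42) and Itgal a negative one (-1.64 to -0.62). Leaving out arrays or experiments moved the difference between 2.46 and 3.42 for Itgax, 0.48 and 1.87 for Itgb2, -0.28 and 1.04 for Itgam, -1.64 and -0.62 for Itgal, and 0.01 and 0.18 for Itgad. It moved the values relative to the macrophage genes between 2.31 and 3.07 for Itgax and between -0.58 and 0.46 for Itgad (0.14 without experiment 1), whose sign is not settled, and the difference of Itgam over Itgad between -0.37 and 0.97. The change from 45% to 60% fat ran from -1.82 to 0.43 for Itgam, from -2.59 to 0.54 for Itgb2 and from -0.81 to 1.87 for Itgal (-0.61 without experiment 2), so these have no settled sign, and from -1.08 to -0.44 for Itgax.

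With the replicate block as a fixed term, which pairs the pools of an experiment, 0 genes passed (smallest adjusted p = 0.0508, that of Itgax 0.0508), and with the block as a random term the adjusted p of Itgax was 0.236. By unadjusted p with the fixed block, Itgax ranked 4 of 18820 genes. The block changed no call of a member by itself. When dim probe sets were also left out, an alternative chosen after the data were seen, Itgax passed (2.98, adjusted p = 0.0440), with 23 genes higher and 2 lower. The adjusted p of Itgax ran from 0.0440 to 1 over all alternatives. With each array centred on its median, the median of all genes moved to -0.05 and the direction of no member changed. By the methods' t-test 524 genes were higher and 286 lower before adjustment and 0 after it. The spread between 4 experiments, and for Itgad the dim signal, limits all of these values.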
